A study of Mus musculus with 12 samples.

Results

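The strain by genotype interaction compares how newborn mouse brain responded to loss of the *nm1054* interval on each of 2 inbred backgrounds. It was formed as the difference between *nm1054* and WT brains on 129 minus the same difference on B6, so a positive value means that the mutant value lay higher, relative to WT, on 129 than on B6. All 12 arrays of the series and all 45281 probes entered it. The groups were WT and *nm1054* mice on 129 and WT and *nm1054* mice on B6, with 3 whole brains each taken at postnatal day 1 (P1), where 129 is 129S6/SvEvTac and B6 is C57BL6/J. Every mutant was homozygous for *nm1054*, a spontaneous deletion on chromosome 1 that removes 6 genes, so the loss of any of the 6 cannot be told apart from the loss of the others. The mutants on B6, and no other group, also carried a bacterial artificial chromosome transgene with *Steap3*, which replaces a deleted gene needed for red cell iron uptake. The interaction therefore joins the background and the transgene, and these cannot be told apart. Males and females were mixed in each group. The labels number the brains of a group without naming litters, so p-values measure the spread between these brains.

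Motile cilia on the ependymal cells of the ventricles move cerebrospinal fluid, and *Cfap221*, one of the deleted genes, encodes a protein of the ciliary axoneme. Mice that lack it develop hydrocephalus, an accumulation of that fluid, which is more severe on B6 than on 129. A gene whose response to the deletion differed between backgrounds would show as an interaction, whereas a gene that merely differed between strains, or that responded alike on both, would not. Brains were taken at P1, while ependymal cilia are still forming and before gross enlargement of the ventricles.

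The values are log2 intensities set against each probe's own median across all arrays, so 0 is the middle brain at that probe and no value gives the brightness of a probe. Group means were compared by limma over all arrays together, with Benjamini-Hochberg adjustment over all probes. The threshold for calling an interaction was an adjusted p of 0.05. A response on 1 background had also to exceed 1.5-fold. Values of 3 brains stood apart from the others at genes of brain regions or of the pituitary. In WT B6 replicate 1 and *nm1054* B6 replicate 2 the hindbrain and midbrain gene *En2* was at 2.78 and 3.48 against -0.72 to 0.28 in the 9 brains other than these 3, and *Hoxa5*, a gene of the caudal hindbrain and spinal cord, was at 3.51 in *nm1054* B6 replicate 2 against -0.21 to 0.39. In *nm1054* 129 replicate 1 the pituitary hormone genes *Gh* and *Pomc* were at 7.52 and 4.04, against highest values of 1.29 and 0.36 in those 9. *Xist*, which is transcribed in female cells, was above 0 in 2 of 3 WT 129, 1 of 3 *nm1054* 129, 1 of 3 WT B6 and 2 of 3 *nm1054* B6 brains. The ratio of females to males thus shifted in opposite directions with genotype on the 2 backgrounds, and *Xist* itself gave an interaction of -3.12 (gene mean, limma adjusted p = 1.00).

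The interaction was small at most probes. Of the 45281 probes, 99.2% had an interaction under 1.5-fold, and the SD of the interaction over probes was 0.20 log2 units beside a median standard error of 0.19. The interaction was called at 1 probe, in *Mcm6*, or 0.00221% of the probes tested. An unadjusted p below 0.05 was reached by 1851 probes (4.09%), of which 472 (1.04%) were positive and 1379 (3.05%) negative. With every array centred on its median the split was 884 positive and 1432 negative, with quantile normalization 881 and 1411, and without WT B6 replicate 1 it was 1121 and 1286. Other settings widened it, to 412 and 2407 with *Xist* as a covariate and to 547 and 2512 without WT B6 replicate 3. Over genes, each taken as the mean of its probes, limma called 0 of 20277 at an adjusted p under 0.05 and had 664 (3.27%) at an unadjusted p under 0.05.

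The responses on the 2 backgrounds bore little relation to each other. With the probes of the deleted genes left out, Pearson's r between them over 45271 probes was -0.0059 and Spearman's rho 0.0057. These values describe probes of the same arrays, which are not independent. Over all probes the SD of the response was 0.16 on B6 and 0.14 on 129. A correlation near 0 would also arise if most probes responded on neither background, so it does not show responses that depend on background. Among the 1851 probes at an unadjusted p under 0.05, which were selected for a difference between the responses and therefore mostly have responses of opposite sign, 1318 were positive on B6 and negative on 129 and 433 the other way. The response on B6 was the larger of the pair at 1218 and that on 129 at 633. Probes without a gene symbol made up more of the negative side, at 4.57% of 9497 probes against 2.64% of the 35784 with a symbol, and less of the positive side, at 0.67% against 1.14%.

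**Figure D1:**
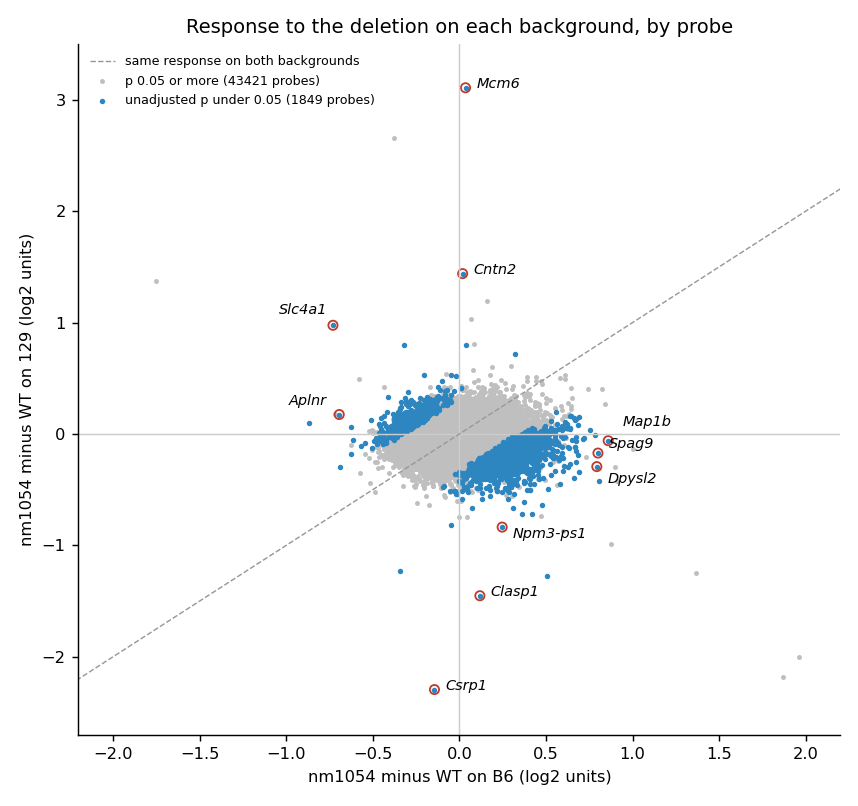
Each point is 1 of 45270 probes, placed by its response to the deletion (*nm1054* minus WT, log2 units) on B6 (horizontal) and on 129 (vertical). The 11 probes left out are those of the deleted genes and the unnamed probe ILMN_2647251, which was called on both backgrounds. Blue points have an unadjusted interaction p under 0.05 and red rings mark named probes; *Mcm6* and *Cntn2* lie high on the 129 axis near 0 on B6, while *Spag9*, *Map1b* and *Dpysl2* lie to the right on B6 near 0 on 129.

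Between *nm1054* and WT brains, 8 probes were called on B6 (0.0177% of all) and 9 on 129 (0.0199%), with 2769 (6.12%) and 1198 (2.65%) at an unadjusted p under 0.05. The count on B6 was 93 without WT B6 replicate 1 and 30 without all 3 brains that stood apart, while that on 129 was 10 without the 3. With all arrays both backgrounds shared 5 called probes, which are 3 probes of *Dbi*, 1 of *3110009E18Rik* and the unnamed probe ILMN_2647251. The 3 called on B6 only were 2 of *Map1b* and 1 of *Spag9*, and the 4 called on 129 only were in *Mcm6*, *Cntn2*, *Npm3-ps1* and the unnamed probe ILMN_1238327. Of these 7 probes the interaction itself was called at *Mcm6* alone, so for the other 6 a difference between the backgrounds was not established by the test of that difference.

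*Mcm6* encodes a subunit of the helicase that unwinds DNA at replication forks. At its probe ILMN_1217331 the 3 WT 129 brains were at -3.17, -3.03 and -3.16. The *nm1054* 129 brains were at 0.40, -0.45 and 0.01, the WT B6 brains at -0.43, 0.40 and 0.23, and the *nm1054* B6 brains at 0.20, -0.01 and 0.12. The WT 129 brains were thus alone at the low end, and the *nm1054* 129 brains lay among the B6 brains. The probe rose 8.61-fold in mutants on 129 (3.11 log2 units, SE 0.19) and differed by 0.04 on B6 (adjusted p = 0.99), which gave an interaction of 3.07 log2 units (95% interval 2.50 to 3.65, limma adjusted p = 4.2e-05). Read the other way, the strain difference was -3.19 in WT and -0.12 in *nm1054* brains.

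The remaining 3 probes of *Mcm6* gave smaller interactions. ILMN_1233857 was at 0.74 (95% interval 0.39 to 1.08) and ILMN_2803399 at 0.58 (0.22 to 0.93), with responses of 0.53 and 0.53 on 129 and of -0.20 and -0.05 on B6. ILMN_1236125 was at -0.17 (-0.52 to 0.18). Probes of the same gene therefore disagreed in size by over 2 log2 units, and the mean over all 4 had an interaction of 1.05 with an adjusted p of 0.061. The sequences of the probes were not used here, so a change in transcript level and a difference in how a strain's transcript binds a probe cannot be told apart.

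**Figure D2:**
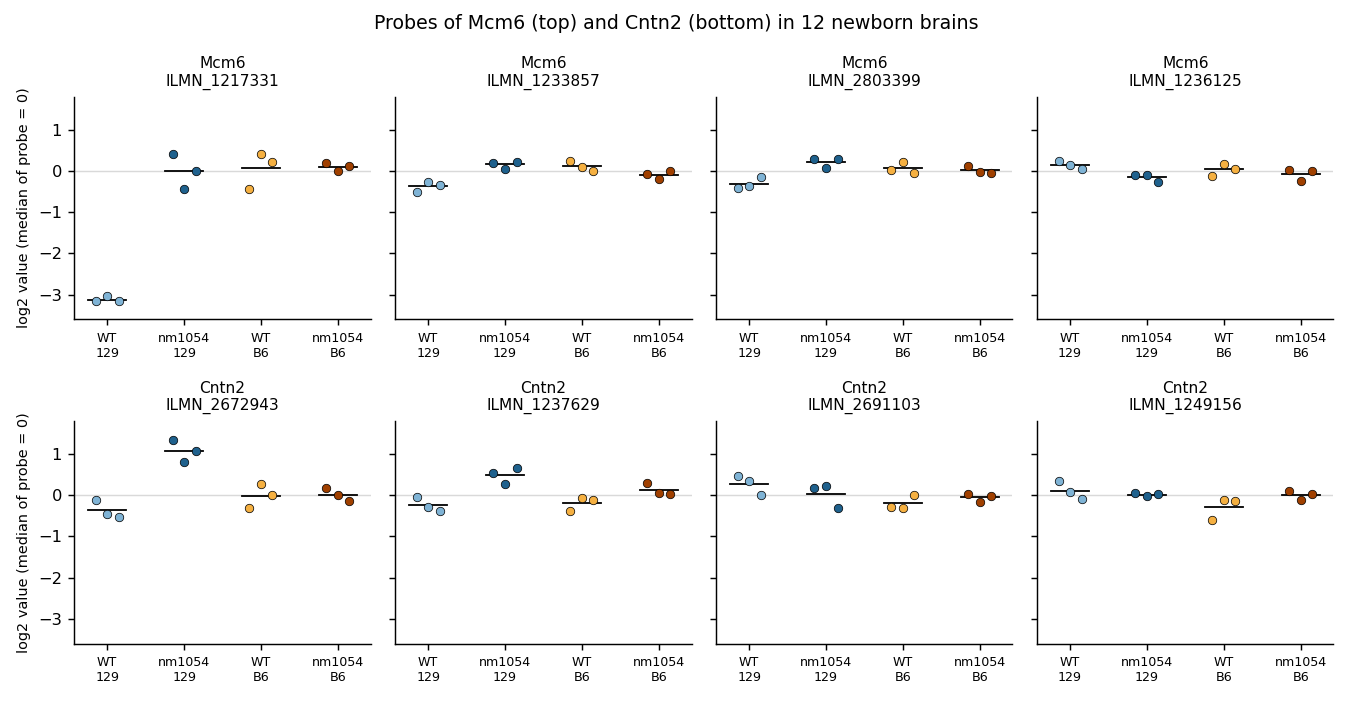
Points are single brains and bars are group means of 3, on the log2 scale with the median of each probe at 0, for the 4 probes of *Mcm6* (top) and the 4 of *Cntn2* (bottom), ordered by interaction. At ILMN_1217331 the WT 129 brains lie near -3 and all others within 0.5 of 0, and at ILMN_2672943 the *nm1054* 129 brains lie above all others.

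*Cntn2*, an immunoglobulin-type adhesion molecule of growing axons, showed the reverse arrangement. At ILMN_2672943 the *nm1054* 129 brains were at 1.33, 0.81 and 1.08, against -0.12, -0.46 and -0.52 in WT 129, -0.30, 0.28 and -0.00 in WT B6, and 0.18, 0.00 and -0.15 in *nm1054* B6. All 3 mutant brains on 129 lay above the 9 brains of the other groups. The probe rose on 129 by 1.44 (2.71-fold, adjusted p = 2.1e-04), with a difference of 0.02 on B6, and its interaction was 1.42 (SE 0.23, 95% interval 0.95 to 1.89), with a limma adjusted p of 0.081. The interaction was called with centred arrays (adjusted p = 0.021), with quantile normalization and without *nm1054* 129 replicate 2 (0.029), WT B6 replicate 1 (0.0055) or all 3 brains that stood apart (0.048). Of 19 scalings, models and single-array removals, 5 called it, array weights among them, and 14 did not (highest adjusted p 0.90). The other probes of the gene were at 0.40, -0.39 and -0.39, so their directions differed.

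At 2 further chromosome 1 probes the size of the interaction moved with single brains. *Csrp1* encodes a LIM-domain protein that binds the actin cytoskeleton. Its single probe was at -3.71, -0.46 and -3.83 in *nm1054* 129 brains and at -0.39, -0.37 and -0.35 in WT 129, so replicate 2 of the mutants lay with the WT brains while the other two lay over 3 log2 units lower. The B6 brains ranged from 0.35 to 0.88. Its interaction was -2.15 (SE 0.74, adjusted p = 1.00) and became -3.25 (adjusted p = 4.4e-08) without *nm1054* 129 replicate 2. *Clasp1*, which encodes a protein of microtubule plus ends, had values of 1.52, 1.05 and 0.83 in WT 129 and -0.25, -0.28 and -0.43 in *nm1054* 129 at ILMN_1225769. The B6 brains were at 0.13 to 0.29 in WT apart from replicate 1 at -1.11, and at -0.46 to 0.26 in mutants. That interaction was -1.57 (SE 0.38, adjusted p = 0.90) and -1.13 without WT B6 replicate 1, and the remaining 3 probes of the gene were at -0.28, -0.17 and -0.01.

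*Mcm6*, *Cntn2*, *Csrp1* and *Clasp1* share their chromosome with the deletion. Counted in protein-coding genes of the RefSeq order (GRCm38.p6), *Clasp1* lies 9 genes before the deleted block, and *Mcm6*, *Cntn2* and *Csrp1* lie 24, 68 and 117 genes after it. Of the probes whose genes lie 1 to 25 genes from the block, 8 of 85 (9.41%) had an unadjusted p under 0.05. The count was 3 of 84 (3.57%) at 26 to 50 genes and 14 of 168 (8.33%) at 51 to 100. The bands beyond 100 and up to 200 genes had 6 of 165 (3.64%) and 6 of 157 (3.82%). At over 200 genes it was 40 of 1357 (2.95%), and over all other chromosomes 3.77% of 33633 probes. The 8 nearest include 3 probes of *Mcm6* and 1 of *Clasp1*, and the 14 include 2 of *Cntn2*. Probes of the same gene are not independent, and these genes were named for their small p, so the higher shares partly repeat those results. The nearest measured gene after the block with a probe at an unadjusted p under 0.05 was *C1ql2*, which encodes a secreted synaptic protein. It was at -0.88 (SE 0.38, adjusted p = 1.00), with responses of -0.34 on B6 and -1.23 on 129. Which of these differences follow from the deletion and which from strain DNA linked to it cannot be told apart in this design.

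**Figure D3:**
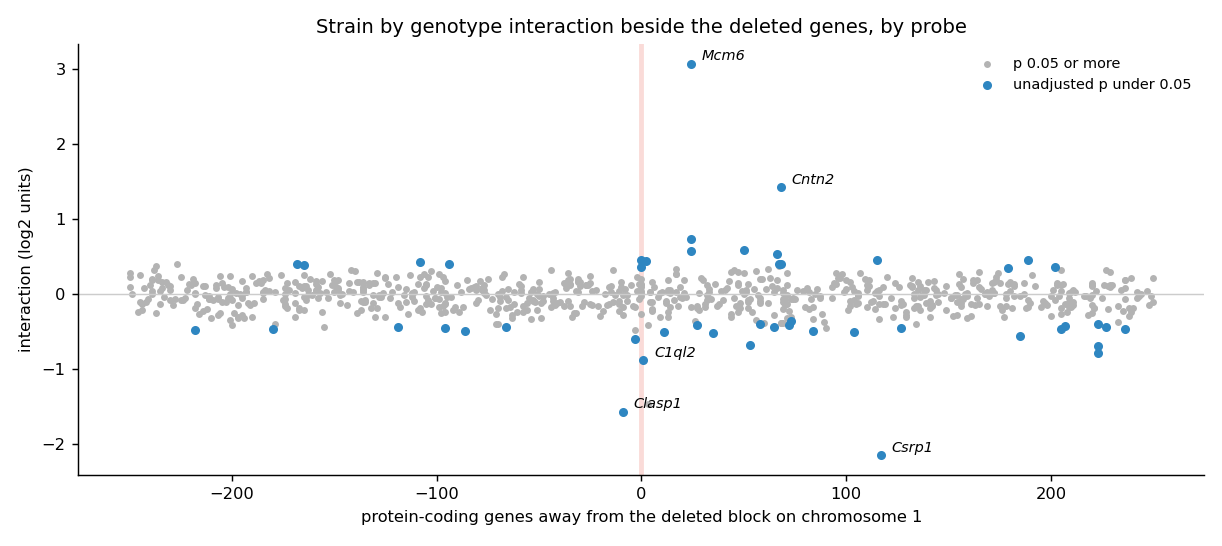
The interaction (log2 units) of probes on chromosome 1 is plotted against the number of protein-coding genes between each gene and the deleted block (shaded, at 0), up to 250 genes on either side. Blue points have an unadjusted p under 0.05; *Mcm6* and *Cntn2* stand highest, *Csrp1* and *Clasp1* lowest, and most other probes lie between -0.5 and 0.5.

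The negative interactions of smallest p were at single probes of *Spag9*, *Map1b* and *Dpysl2*, and none was called. *Spag9* encodes a scaffold that links kinase signaling to motor proteins on microtubules. At ILMN_1229777 WT B6 brains were at -0.56, -0.45 and -0.41 and *nm1054* B6 brains at 0.36, 0.33 and 0.29, while WT 129 brains were at 0.16, 0.04 and 0.06 and *nm1054* 129 brains at -0.04, -0.05 and -0.17. The B6 groups lay at the 2 ends with both 129 groups between them and no overlap. The probe rose 1.74-fold on B6 (0.80, adjusted p = 0.0026) and differed by -0.17 on 129, and the interaction was -0.97 (SE 0.15, 95% interval -1.28 to -0.66, limma adjusted p = 0.065). It was called with centred arrays (0.021), with quantile normalization (0.035) and without WT B6 replicate 1 (0.031). Of the 19 settings, 5 called it, array weights and the ordinary linear model among them, and 14 did not (highest adjusted p 0.31). The other 4 probes of *Spag9* ranged from -0.13 to 0.08, with none at an unadjusted p under 0.05.

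*Map1b*, which encodes a microtubule-associated protein of extending axons, kept 1 direction over its probes. At ILMN_2932081 the values were -0.19, -0.38 and -0.50 in WT B6 and 0.58, 0.48 and 0.44 in *nm1054* B6, against -0.11 to 0.13 over the 6 brains on 129. The mutants on B6 lay above every other brain, and the WT B6 brains below every other. The response was 0.86 on B6 (1.81-fold, adjusted p = 0.0033) and -0.06 on 129, and the interaction was -0.92 (SE 0.16, adjusted p = 0.22). A second probe, ILMN_2750248, rose by 0.78 on B6 (adjusted p = 0.034), with an interaction of -0.79, and the other two were at -0.46 and -0.29. The mean over the 4 probes had an interaction of -0.61 (95% interval -0.89 to -0.34). Without WT B6 replicate 1 ILMN_2932081 was called, at -1.003 (adjusted p = 0.031).

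*Dpysl2* encodes a tubulin-binding protein that promotes axon growth. At ILMN_1240571 WT B6 brains were at -0.40, -0.60 and -0.73 and *nm1054* B6 brains at 0.15, 0.03 and 0.47. The 129 brains were at 0.31, 0.01 and 0.11 in WT and -0.01, -0.33 and -0.11 in mutants. Only the WT B6 brains lay apart from all others, at the low end. The interaction was -1.09 (SE 0.20, adjusted p = 0.22), and it was called at -1.17 without WT B6 replicate 1 (adjusted p = 0.031) and at -1.34 without all 3 brains that stood apart (0.048). The other probes were at -0.66, -0.15 and 0.03. The unnamed probe ILMN_1224842 was also called without WT B6 replicate 1, at -1.06 (adjusted p = 0.031), against -0.89 with all arrays.

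Further negative interactions named by their p, none of them called, were at *Zic2*, *Satb1*, *Frmd4a*, *Rasal2* and *Sox6*. *Zic2*, a zinc finger factor of forebrain patterning, had values of 0.79, 0.45 and 0.19 in *nm1054* B6 against -0.18, -0.05 and -0.36 in WT B6, with 0.05 to 0.21 in WT 129 and -0.16 to -0.14 in *nm1054* 129. Its interaction was -0.92 at ILMN_2470518 (SE 0.19, adjusted p = 0.54) and -0.20 at its other probe. *Satb1*, which encodes a chromatin organizer, was at -0.91 (adjusted p = 0.54), with WT B6 at -0.67, -0.79 and -0.34 below all 9 other brains, and its other probes were at -0.28 and 0.11. *Sox6*, a transcription factor of progenitors and interneurons, was at -0.86 (adjusted p = 0.90), and its B6 mutants, at 0.81, 0.55 and 0.69, lay above all other brains. The scaffold gene *Frmd4a* had probes at -0.79 and -0.71, with the other two at -0.17 and -0.13. *Rasal2*, which encodes an inhibitor of Ras signaling, had all 3 probes at an unadjusted p under 0.05, at -0.79, -0.69 and -0.40, and lies 223 genes after the deleted block.

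Among negative interactions that came from the 129 side, *Npm3-ps1*, a pseudogene of a nucleophosmin-type histone chaperone, was at -0.80, -0.14 and -0.54 in *nm1054* 129 and at 0.22, 0.47 and 0.34 in WT 129. All 6 brains on B6 lay between -0.26 and 0.16, so WT 129 lay above the B6 range and 2 of the 3 mutants on 129 below it. It fell by 0.84 on 129 (adjusted p = 0.0498), and its interaction was -1.08 (SE 0.20, adjusted p = 0.22), with -0.41 at its other probe. Without *nm1054* 129 replicate 2 it was called, at -1.26 (adjusted p = 0.022). Transcripts of the parent gene and of the pseudogene may share probes, so the source of this signal is uncertain. *Smug1*, which encodes a DNA glycosylase that removes uracil, had the split seen at *Csrp1*. Its *nm1054* 129 brains were at -1.14, -0.01 and -1.14 against 0.01 to 0.14 in WT 129, and the interaction of -0.77 (adjusted p = 1.00) became -1.15 without replicate 2 of the mutants (adjusted p = 0.043).

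**Figure D4:**
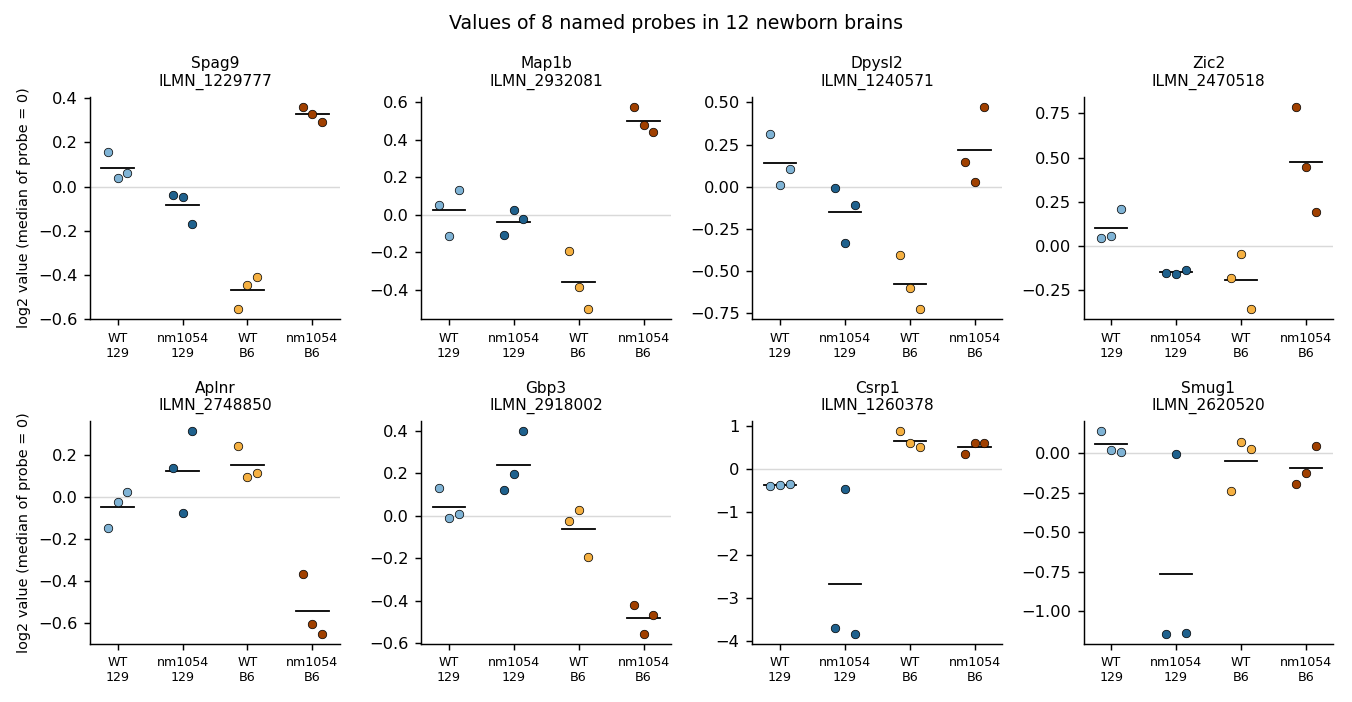
Points are single brains and bars are group means of 3, on the log2 scale with the median of each probe at 0 and a separate vertical scale for each probe. For *Spag9*, *Map1b*, *Dpysl2* and *Zic2* the *nm1054* B6 mean is the highest, for *Aplnr* and *Gbp3* the lowest, and for *Csrp1* and *Smug1* replicate 2 of *nm1054* 129 lies with the WT 129 brains.

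The positive interactions below *Mcm6* and *Cntn2* mostly reflected low values in mutants on B6. *Aplnr*, the apelin receptor of developing vessels, was at -0.37, -0.61 and -0.65 in *nm1054* B6 and at -0.15 to 0.31 in the 9 brains of the other groups. Its mutants on B6 lay below all others, and its interaction was 0.87 (SE 0.17, 95% interval 0.50 to 1.23, limma adjusted p = 0.42), from -0.69 on B6 and 0.17 on 129. *Gbp3*, an interferon-induced GTPase gene, was at -0.42, -0.55 and -0.47 in *nm1054* B6 against -0.19 to 0.40 elsewhere, and its interaction was 0.61 (adjusted p = 1.00). *Espn*, which encodes an actin-bundling protein, was at 0.63 (adjusted p = 0.97), but its other probes were at -0.32, -0.11 and 0.07. *Dlst*, a subunit of the oxoglutarate dehydrogenase complex, had 4 of 4 probes above 0, from 0.15 to 0.52, and *Car12*, a carbonic anhydrase, both, at 0.29 and 0.60. *Smpd2*, a sphingomyelinase, and *Iap* were at 0.60 and 0.59, with adjusted p-values of 1.00.

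*Slc4a1*, the anion exchanger of the red cell membrane, had the largest positive value after *Mcm6* among the probes named by their p, at 1.71 (SE 0.48, adjusted p = 1.00). The *nm1054* 129 brains were at 0.53, 0.58 and 0.34 and the WT 129 brains at -0.53, -0.43 and -0.52, without overlap, but WT B6 brains were at -0.41, 1.91 and 0.28. Without WT B6 replicate 1 the value was 2.21 (adjusted p = 0.031), and without WT B6 replicate 2, the brain at 1.91, it was 1.05 (adjusted p = 0.92). The same brain was alone at 2 probes of *Stfa1*, at 2.36 and 2.36. *Slc4a1* was the only one of 20 measured red cell genes at an unadjusted p under 0.05, and the median interaction of that list was 0.01.

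None of the 10 probes of the deleted genes had a called interaction, and 2 had an unadjusted p under 0.05. *Dbi*, which encodes the acyl-CoA binding protein, lay at 3.35 to 3.70 in the 6 WT brains and at -3.89 to -3.35 in the 6 mutants at ILMN_1215469. The responses were -7.28 on B6 and -7.15 on 129, and the interaction was 0.13 (95% interval -0.27 to 0.53, adjusted p = 1.00). The other probes of *Dbi* were at 0.20 and 0.45 (95% interval of the latter 0.14 to 0.76), where mutants were at -4.24, -4.16 and -4.15 on B6 and -3.71, -3.85 and -3.81 on 129. *3110009E18Rik*, an uncharacterized gene of the block, had responses of -4.39 and -4.35, with an interaction of 0.04. For *Cfap221* the responses were -0.49 and -0.48 with an interaction of 0.01 (95% interval -0.36 to 0.39), and neither response was called. *Sctr*, the secretin receptor, had probes at -0.27 and -0.02, and *Tmem37*, a calcium channel subunit gene, was at 0.11. Responses were -0.11 on B6 and -0.38 on 129 at ILMN_3073395 of *Sctr*, and -0.03 and 0.09 at *Tmem37*. None of these was called, so interactions near 0 at these probes do not show equal loss on both backgrounds. *Steap3*, the ferrireductase carried by the transgene of the B6 mutants, was at 0.09 and 0.36. At the second of these probes the transgenic mutants were at -0.44, -0.11 and -0.09 and WT B6 at 0.21, -0.05 and 0.09. The mutants on 129, which lack *Steap3* and the transgene, had responses of -0.0055 and 0.06 at the 2 probes. Neither probe registered loss of the gene on 129, so these values do not show whether the transgene added transcript. The study describes *Cfap221*, *Sctr*, *Steap3* and *Tmem37* as inconsistently detected, marginal or absent within its groups. In separate P1 brains its quantitative RT PCR found no expression of *Cfap221*, *Acbp* (*Dbi*) and *Sctr* in mutants, shown for B6.

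A set of 7 genes of cilia, centrosomes and hydrocephalus was examined because the study discusses strain differences in them that depend on genotype. It reports each as different in WT or in *nm1054* brains only, except *Spag1*, reported in opposite directions in the genotypes. Its lists apply a threshold or detection call within each genotype, whereas the interaction compares the genotypes directly. None of their 17 probes had an interaction at an unadjusted p under 0.05. *Ccdc88c*, an inhibitor of Wnt signaling, had interactions of -0.15 to 0.17 over 3 probes. At ILMN_1237980 its strain difference was -1.44 in WT and -1.58 in *nm1054* brains, and at ILMN_2807229 -1.29 and -1.36. *Rnd3*, which regulates the actin cytoskeleton and adhesion, had strain differences of -1.84 and -1.68, with an interaction of 0.16 (95% interval -0.42 to 0.73). *Wdr92*, a factor for assembly of dynein arms, had -1.07 and -1.27 at ILMN_1225370 but 0.19 and 0.24 at its other probe. *Pcm1*, a protein of centriolar satellites, had -0.76 and -1.19 at ILMN_2440033, where the interaction was -0.43 (95% interval -0.89 to 0.03), the largest in size of the 17. Its other 4 probes had strain differences of the opposite sign, from 0.15 to 0.43 in WT and 0.05 to 0.35 in *nm1054* brains. *Spag1*, another dynein assembly factor, also had probes of opposite sign between strains, 1.03 and 0.88 at one and -0.59 and -0.69 at the other, and both signs held in each genotype. *Snx10* and *Ift74*, which act in vesicle sorting and in transport along cilia, had interactions from -0.12 to -0.01. The intervals at *Rnd3* and *Pcm1* still allow differences of over 0.5 log2 units between the genotypes.

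No gene in any of the 33 gene lists passed the adjusted threshold, and the lists are described by counts beside the background of all genes, where 3.27% had an unadjusted p under 0.05 (1.34% positive, 1.93% negative) and the median interaction was -0.01. Genes of the neuronal cytoskeleton and growth had 5 of 30 (16.7%), and *Map1b* (-0.61), *Dpysl2* (-0.47), *Map1a* (-0.50) and *Gpm6b* (-0.41) were negative while *Dpysl5* was positive at 0.31. Part of that list was chosen for its values on these arrays, so its count is not independent evidence. Its median was -0.11, from responses of 0.05 on B6 and -0.02 on 129, and 21 of 30 members were below 0. Adhesion molecules of axons had 2 of 20, *Ncam1* (-0.27) and *Chl1* (-0.33). Synaptic genes of neurons had 1 of 16, the AMPA receptor subunit *Gria2* (-0.44), with 9 members above 0 and a median of 0.05.

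The shares in the cilia lists lay near the 3.27% of all genes and so give no result about cilia genes. Of 50 measured genes of motile cilia 2 had an unadjusted p under 0.05, the central apparatus gene *Cfap54* (-0.32) and *Rfx3* (-0.44), a transcription factor of ciliogenesis, and the median was -0.02. Of 37 genes of primary cilia and intraflagellar transport 2 did, *Ift122* (0.49) and *Ift88* (0.30), with a median of 0.01. Centrosome and centriole genes had 1 of 30, *Sass6* (0.38), and hydrocephalus genes 1 of 36, again *Rfx3*. Values of *Rfx3* were -0.61, -0.47 and -0.49 in WT B6 and 0.24, -0.14 and -0.21 in *nm1054* B6, against -0.08 to 0.41 on 129. The medians of the motile and primary cilia lists changed sign under 6 settings each.

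Among genes of signaling and metabolism, *Ctnnb1* (-0.30), the effector of Wnt signaling, and the ligand gene *Wnt7a* (0.36) were the 2 of 30 Wnt genes at an unadjusted p under 0.05. Iron genes had 2 of 22, the iron exporter *Slc40a1* (0.45) and the mitochondrial importer *Slc25a37* (0.29). Interferon and antigen presentation genes had 1 of 23, *Stat2* (0.41), with a median of 0.11 and responses of -0.13 on B6 and -0.02 on 129. Immediate early genes had 1 of 20 (5%), *Nr4a3* (-0.30), and ribosomal protein genes 1 of 52 (1.92%), *Rpsa* (-0.37). None of the measured genes of Notch or Hedgehog signaling, the Atf4 stress response, cholesterol synthesis, acyl-CoA binding, the respiratory chain, hypoxia or mitosis did. Besides *Mcm6*, none of the other 33 genes of replication licensing and forks had such a p, and the median of that list was 0.03.

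**Figure D5:**
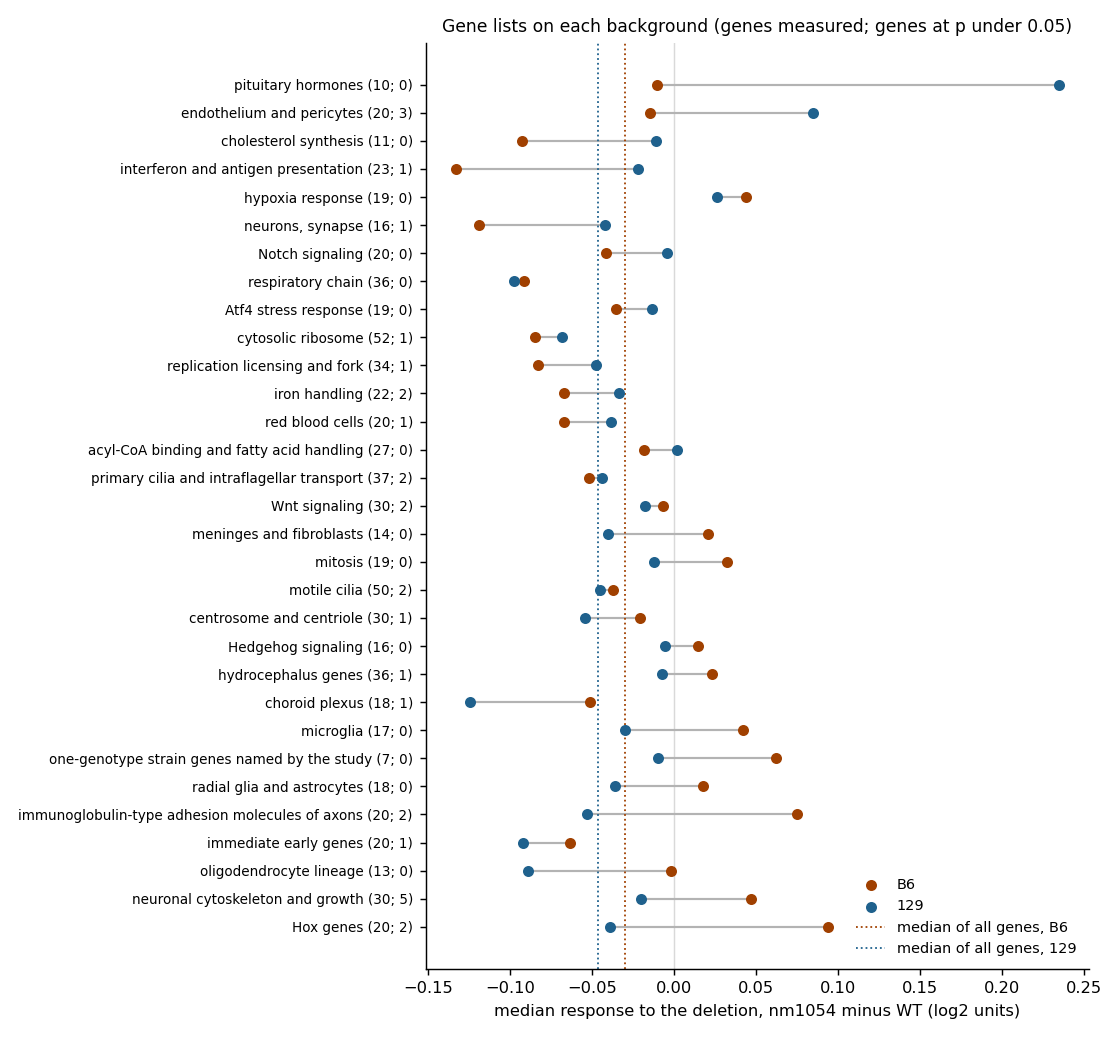
For gene lists other than the deleted and sex-linked genes, the median response to the deletion (*nm1054* minus WT, log2 units) over its measured genes is shown on B6 and on 129, ordered by median interaction, with dotted lines for all genes. Numbers after each name are genes measured and genes with an unadjusted interaction p under 0.05; the pituitary list lies farthest to the right on 129, at 0.23, and medians of the other lists drawn lie between -0.13 and 0.09 on either background.

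Markers of tissue that a dissection can include in differing amounts were examined on the same scale. In bulk tissue, fewer cells of a type and less RNA per cell cannot be told apart. Pituitary hormone genes had the largest median, 0.38, with 0 of 10 at an unadjusted p under 0.05, and *Gh* was at 3.03. The mean of the list, on arrays centred on their median, was 1.86 in *nm1054* 129 replicate 1 and within -0.18 to 0.15 in all 9 brains of the other groups. Hox genes had a median of -0.14 with 2 of 20 at such a p, *Hoxd4* (-0.49) and *Hoxb6* (-0.51), and the list mean was 0.67 in *nm1054* B6 replicate 2 alone, with -0.079 and -0.025 in the other mutants on B6 and -0.03 to 0.07 in the other groups. Oligodendrocyte genes had 12 of 13 members below 0 but 0 at such a p, with a median of -0.11. Endothelial and pericyte genes had 3 of 20, *Tie1* (0.47), *Ptprb* (-0.53) and *Flt1* (-0.28), which are all vascular receptors, and a median of 0.12. The choroid plexus list had 1 of 18 (5.56%), *Otx2* (-0.78), and microglia, meninges and astrocyte lists had none. The part of these tissue differences in the neuronal and Hox gene values was not tested beyond the fits without the brains concerned. In those fits *Mcm6* was at 3.06 (adjusted p = 1.3e-07) without all 3 such brains, *Spag9* at -0.95 (0.23) and *Map1b* at -0.98 (0.24).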

How the data were processed

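Whole brains at P1 were measured on single-colour Illumina MouseWG-6 arrays. The deposited log2 values came from GenomeStudio intensities that the authors normalized with GeneSpring GX, and each probe's median across all arrays is 0. Software versions and the kind of normalization between arrays are not given in the sources used here. No signal level or detection call was used, so dim probes were not filtered out. Precision is limited by having 3 arrays per group.

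All 45281 probes entered the fit. A symbol was given to 35784 probes (20277 genes), updated through the gene identifier for 28620, the transcript identifier for 2637 and a current symbol or synonym for 4488, and kept from the platform annotation for 39. RefSeq GRCm38.p6 gave names and gene order. Means of the 4 groups were fitted over all arrays with limma 3.58.1 in R 4.3.3 (8 residual and 10.8 prior degrees of freedom), two-sided, and again on the mean of each gene's probes. The methods' unpaired test has no interaction, and the ordinary linear model without moderation took its place as an alternative. Figures used Python 3.11.15 and matplotlib 3.10.9. The fit was tested on simulated data with independent noise at each probe and 50 interactions planted per size. It recovered 34% at 0.8 log2 units, 60% at 1, 90% at 1.5 and 98% at 2, with 6 false calls. Interactions near 1 log2 unit or smaller can therefore go uncalled.

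Members and lists were chosen with earlier results of these data known. Named are called probes, the 10 genes of smallest p in each direction (predicted genes skipped), probes called on 1 background or called when an array was left out or rescaled (at most 12), the deleted genes, 7 genes of the study, and at most 3 genes per list with an unadjusted p under 0.05. *C1ql2*, *Gpm6b*, *Dpysl5*, *Stfa1* and the region and hormone genes lie outside this rule and were chosen after their values were seen. Alternatives were other scalings, array weights, robust variance, a replicate block, *Xist* as a covariate, removal of the less variable probes, the most variable probe of each gene, and each array left out in turn. Leaving out 3 arrays together was added after the data had been seen.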

Additional observations from a re-analysis of the deposited data

Results flagged for a closer look

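The single result for which a test of the difference itself separated the backgrounds was *Mcm6* at ILMN_1217331, with an interaction of 3.07 log2 units by limma. The probe was low in the 3 WT 129 brains alone. The call held with each of the 12 arrays left out in turn, and no separate test for outlying brains was run.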

How the results depend on the processing

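The call at *Mcm6* held under all settings but the ordinary linear model, whose adjusted p of 0.56 for *Mcm6* stood beside a call of *Spag9*, and its value without single arrays ran from 2.86 to 3.32. The count of called probes was 1 in that model, with robust variance, with a replicate block, with *Xist* as a covariate and over 1.5-fold, 2 without the less variable probes, 3 with centred arrays, 5 with quantile normalization, 39 with array weights and 3 without the 3 brains that stood apart. Leaving out single arrays gave 1 to 7, with 7 without WT B6 replicate 1 and 5 without *nm1054* 129 replicate 2. Over genes the count of 0 became 1 with centred arrays, quantile normalization or the most variable probe, and 0 to 2 without single arrays. Calls on B6 ran from 6 to 93 without single arrays (93 without WT B6 replicate 1) and were 30 without the 3 brains, and calls on 129 ran from 7 to 13. The cause of these shifts was not tested. Of the 1851 probes at an unadjusted p under 0.05, 1721 were shared with centred arrays, 1186 without WT B6 replicate 1 and 864 without the 3 brains. Replicate numbers did not pair the brains (correlation of same-numbered deviations -0.32 to 0.19, 2 of 18 over 0.1), and the replicate block gave 1 call, *Mcm6*.

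Uncalled values near 0 changed sign. With array weights they were 0.059 at ILMN_2647251, -0.18 at *Steap3*, 0.064 at *Sctr*, -0.15 at *Rnd3*, 0.14 at *Ccdc88c*, 0.066 at *Snx10*, 0.021 at *Ift74* and 0.15 at *Pcm1*. With *Xist* as a covariate they were -0.0056 at *3110009E18Rik*, -0.042 at *Steap3*, -0.074 at *Cfap221*, -0.014 at *Pcm1* and -0.053 at *Wdr92*. Centring gave 0.010 at *Sctr*, 0.017 at *Ift74* and 0.0064 at *Pcm1*, and quantile normalization -0.080 at *3110009E18Rik*, -0.060 at *Cfap221*, 0.015 at *Ift74* and 0.036 at *Pcm1*. Without single arrays the ranges were -0.053 to 0.14 at *3110009E18Rik*, -0.12 to 0.035 at ILMN_2647251, -0.13 to 0.23 at *Steap3*, -0.081 to 0.10 at *Cfap221*, -0.13 to 0.096 at *Sctr*, -0.12 to 0.10 at *Ift74*, -0.19 to 0.35 at *Rnd3*, -0.058 to 0.29 at *Pcm1*, -0.46 to 0.026 at *Ccdc88c*, -0.16 to 0.015 at *Ift74*, -0.13 to 0.028 at *Snx10*, -0.052 to 0.22 at *Wdr92*, -0.23 to 0.052 at *Ift74*, -0.16 to 0.13 at *Pcm1* and -0.26 to 0.042 at *Ccdc88c*.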

Other observations

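Within single groups, 6 probes in WT 129, 12 in *nm1054* 129, 17 in WT B6 and 20 in *nm1054* B6 spread over more than 2 log2 units. Besides *Xist* and Y-linked genes, those of *nm1054* 129 held *Gh*, *Pomc*, *Cga* and *Tshb*, which were high in replicate 1, and *Csrp1*, at which replicate 2 was alone in lying near the WT brains. They also held a probe of *Actb*, at -1.92 in replicate 3 against -0.39 and 0.09 in replicates 1 and 2. Those of both B6 groups held *En1*, *En2*, *Tfap2b* and *Slc6a2*, genes of the midbrain, hindbrain and noradrenergic neurons. At *Slc4a1*, *Stfa1* and the unnamed probe ILMN_2619200, also among those of WT B6, replicate 2 was the highest. *En1* was at 2.08 in WT B6 replicate 1 and 2.18 in *nm1054* B6 replicate 2, against -0.91 to 0.28 in the 9 brains other than these and *nm1054* 129 replicate 1.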
